A study of Mus musculus with 6 samples.

Results

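Notch signaling passes between neighboring cells. A transmembrane ligand of the Delta or Jagged family on one cell binds a Notch receptor on the next, and ligand activity depends on ubiquitination of its cytoplasmic tail by the E3 ligases of the Mind bomb (Mib) and Neuralized (Neurl) families, which starts ligand endocytosis and the pulling force that exposes the receptor to cleavage. On the receiving cell, the Fringe enzymes Lfng, Mfng, and Rfng extend O-fucose sugars on the receptor and thereby change which ligands it answers to. In resting muscle, Notch signaling keeps muscle stem cells (MuSCs) quiescent, and the ligands are thought to come largely from neighboring cells.

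Here 10 genes that send or tune the signal were examined, chosen by name: the ligands Dll1, Dll4, Jag1, and Jag2, the ligand ligases Mib1, Mib2, and Neurl1a, and the Fringes Lfng, Mfng, and Rfng, of 31053 mouse genes in the count table. Bulk RNA-seq was done on MuSCs sorted by GFP from hindlimb muscle of mice aged 3 to 4 months, from 3 WT mice, named c124, c129, and c130, and from 3 mice of the cD2KO group, named fl125, fl126, and fl128. Every mouse carried the Pax7nGFP reporter (Pax7nGFP/+) and floxed Dio2 alleles (Dio2Fl/Fl), and every mouse received tamoxifen. In cD2KO mice a second allele, Pax7-CreERT2/+, drove a tamoxifen-activated Cre from Pax7, the gene that marks MuSCs, whereas WT mice were Pax7+/+ and had no Cre, so loss of Dio2 and presence of the Cre allele cannot be told apart. Dio2 encodes D2, the deiodinase that makes active thyroid hormone inside the cell. The comparison asks whether the sending and tuning side of the Notch pathway differed in level between quiescent MuSCs from cD2KO and WT mice.

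The 6 libraries held between 2184073 and 3897787 counts over genes and detected between 13985 and 15491 genes. Levels below are CPM, counts per library size of 1e6 after TMM scaling. A total of 3 counts, taken as the floor, equaled 0.768 to 1.36 CPM. Dio2 itself had few counts, 21, 5, and 10 in WT and 15, 5, and 1 in cD2KO, which as levels were 5.38, 1.84, and 3.46 CPM in WT and 6.80, 1.71, and 0.314 CPM in cD2KO. The library labelled fl125 of cD2KO thus had the highest Dio2 level of any mouse, against its label. At these counts it was not separated from c124 beyond counting error. Whether the reads lie in the deleted part of the gene is not given in the sources used here. Fold changes without fl125 are given for every tested member. Mouse fl125 stood apart from the other libraries on the first principal component, which carried 45.1% of the variance. Summed marker levels also separated some libraries. The MuSC list of 10 genes overlapped between groups (1400 to 1889 CPM in WT, 1620 to 2826 CPM in cD2KO), with Pax7 at 211 to 688 CPM and 3 genes (Myf5, Itga7, and Cdh15) called higher in cD2KO. The immune list of 20 genes summed to 4694 to 9086 CPM in WT and to 243, 2669, and 3086 CPM in cD2KO, the lowest being fl125. The mural list of 11 genes, which includes smooth muscle genes such as Acta2, was 5622 to 9531 CPM in WT and 11283 to 16594 CPM in cD2KO. The endothelial list of 20 genes was 318 to 509.9 CPM in WT and 273 to 339 CPM in cD2KO. Although these sums overlapped, 8 of its 15 tested genes were called lower, against 6.62% of all tested genes, and none higher. The fibroadipogenic and myofiber lists overlapped between groups, with 2 genes called lower (Lum and Gsn) in the first and 1 called higher (Myh2) in the second. The mural and the myofiber sums exceeded the MuSC sum in all 6 mice, and the immune and fibroadipogenic sums did so in 5 of 6, in cells sorted by Pax7-driven GFP. The lists differ in length and hold genes of unlike abundance. A larger sum therefore does not show more RNA or more cells of that type. In these bulk samples, fewer cells of a type and less RNA per cell cannot be told apart.

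**Figure D1:**
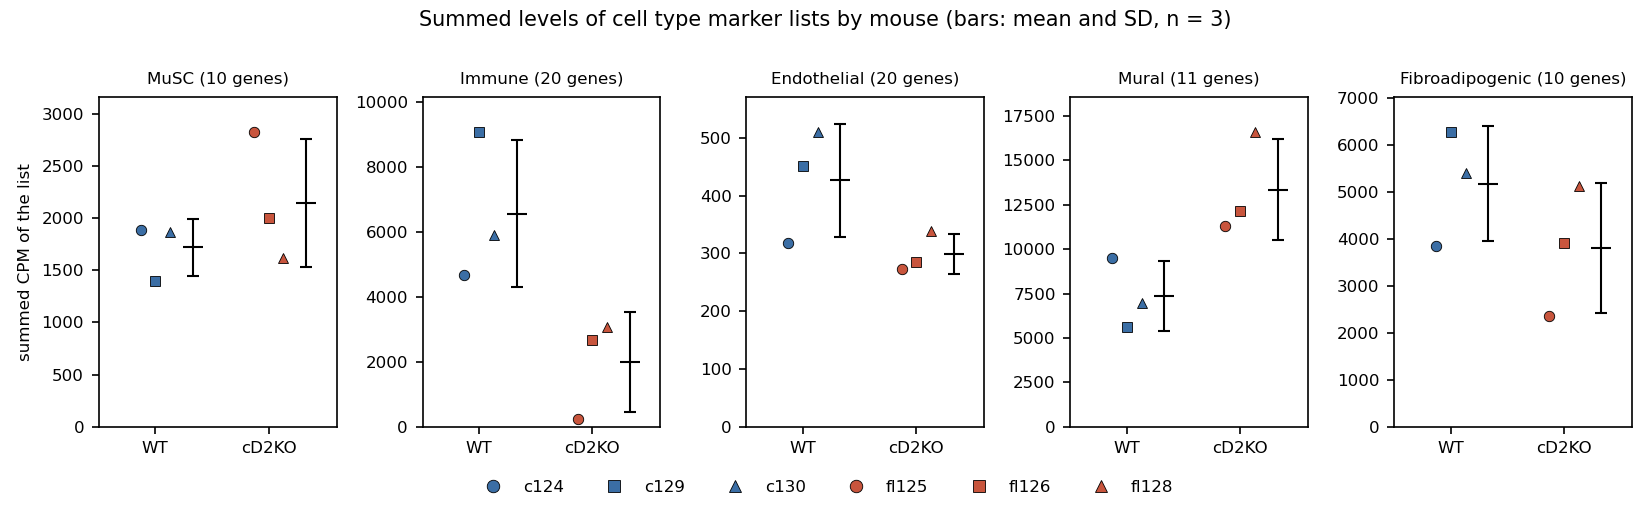
Summed CPM of 5 marker lists (y axis) for each mouse, by group (x axis), with each symbol a mouse and bars giving the mean and SD of 3 mice. The immune list was lower and the mural list higher in every cD2KO mouse than in every WT mouse, whereas the MuSC, endothelial, and fibroadipogenic lists overlapped between the groups.

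The stretches before the transcription start are shown for 3 members, Jag1 as the ligand that held most ligand reads, Neurl1a as the ligase that passed the test, and Lfng as the member whose window held matches to the binding motif of Rbpj, the DNA-binding factor through which Notch acts. They were taken from RefSeq (GRCm38.p6, the assembly also named mm10), are written 5′ to 3′ on the strand of the gene, and end where the annotated gene begins. Entries were found for 8 of the 10 members. Capitals mark matches to the letters TGGGAA (Rbpj core) on either strand, or to GTGGGAA, which contains that core.

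Lfng, chr5:140607091-140607319, + strand: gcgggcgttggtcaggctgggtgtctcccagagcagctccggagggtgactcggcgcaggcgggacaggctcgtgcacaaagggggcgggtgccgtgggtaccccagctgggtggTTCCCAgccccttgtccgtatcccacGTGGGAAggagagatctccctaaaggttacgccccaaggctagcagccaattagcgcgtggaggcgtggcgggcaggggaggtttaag
Neurl1a, chr19:47178570-47178819, + strand: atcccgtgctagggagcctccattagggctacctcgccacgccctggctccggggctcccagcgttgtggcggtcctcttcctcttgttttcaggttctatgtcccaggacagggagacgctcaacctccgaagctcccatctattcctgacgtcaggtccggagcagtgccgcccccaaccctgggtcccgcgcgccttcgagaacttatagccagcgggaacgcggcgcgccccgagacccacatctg
Jag1, chr2:137116645-137116770, - strand: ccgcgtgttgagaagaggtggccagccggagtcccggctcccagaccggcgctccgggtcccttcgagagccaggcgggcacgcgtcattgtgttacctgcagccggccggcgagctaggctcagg

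The Lfng window held 2 matches to TGGGAA, one on each strand, and the one nearer the RefSeq start ended 102 bases before it. That match lay within GTGGGAA. Over all 32851 RefSeq promoter windows of 250 bases, 21.6% held TGGGAA and 5.42% held GTGGGAA on either strand. Windows taken for the other members held none of these letters. AGGTCA, the half-site read by thyroid hormone receptors, was found in 14% of all windows and, among the members, once, in a Dll1 window. These matches describe letters in the window and no binding was measured.

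Among the 10 members, 7 passed the expression minimum of the study, a mean of more than 10 size-factor normalized counts, and could be tested with the 11633 genes that passed it. Of these 7, 1 was called higher in cD2KO at an unadjusted p under 0.05 (Neurl1a), against 5.34% of all tested genes, and 1 was called lower (Mfng), against 6.62%. Mfng passed the minimum narrowly, at a mean of 10.3, through the WT group in which it was high, so it could enter only with a difference, and the count of lower members supports nothing. No member passed an adjusted p of 0.05 (adjusted p = 0.315 to 0.943), as against 0.00860% of all tested genes, which was 1 gene, and the smallest adjusted p of any member in any alternative fit, DESeq2 and limma voom included, was 0.156. Every cD2KO mouse lay above every WT mouse for Jag1, Mib2, and Neurl1a, against 8.10% of all tested genes, and below for Mfng, against 10%. The median log2 fold change was -0.10 over the 7 members and -0.02 over all tested genes. Dll1, Dll4, and Jag2 were under the minimum and are given by their counts.

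**Figure D2:**
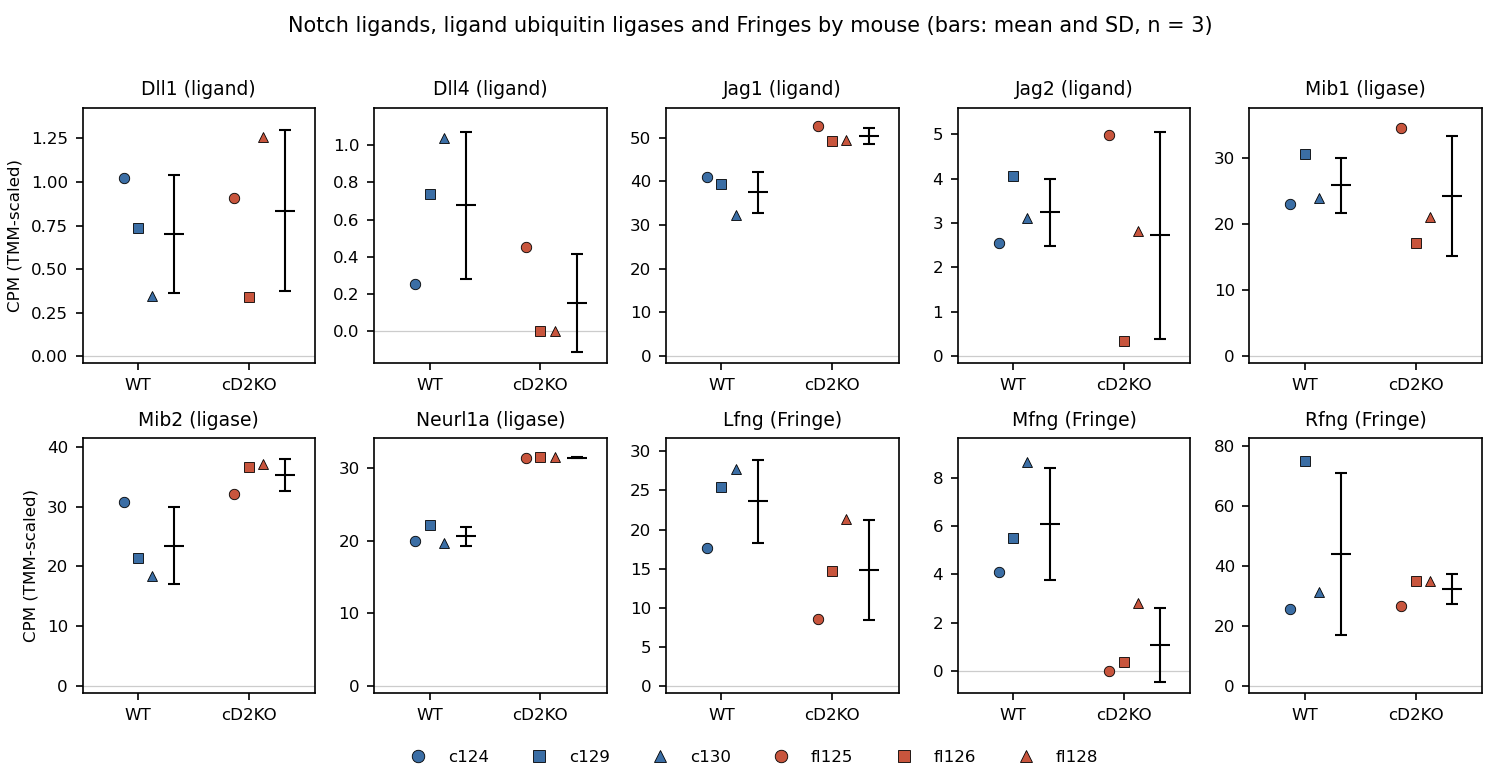
CPM (y axis, a separate scale in each panel) of the 10 members in each mouse, by group (x axis), with each symbol a mouse and bars giving the mean and SD of 3 mice. Jag1, Mib2, and Neurl1a were higher and Mfng lower in all 3 cD2KO mice than in any WT mouse, and the other members overlapped.

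Most ligand counts in these bulk libraries were of Jag1. The libraries also held reads of marker genes of other cell types. Which cells the Jag1 reads came from was not tested. Jag1 (ENSMUSG00000027276, chromosome 2, 137081456 to 137116644, minus strand), a Jagged ligand with a large extracellular domain, took 87.7%, 87.7%, and 91.4% of the counts of the 4 ligands in WT (c129, c130, and c124) and 89.2%, 98.6%, and 92.4% in cD2KO (fl125, fl126, and fl128). The exact Clopper-Pearson 95% intervals of these shares ran from 79.9% at the lowest to 99.8% at the highest, and they cover counting error only. The level of Jag1 was 41.0, 39.4, and 32.2 CPM in WT mice and 52.6, 49.3, and 49.4 CPM in cD2KO mice. All cD2KO mice were above all WT mice, and the 3 cD2KO mice were close to each other, within counting error. Mean levels were 37.5 ± 4.68 (WT) and 50.4 ± 1.88 CPM (cD2KO; SD, n = 3 each). The difference did not pass the test, with a log2 fold change of 0.42 (SE 0.23, 95% interval -0.07 to 0.91, unadjusted p = 0.0847, adjusted p = 0.499). Without fl125 the value was 0.43. The part of the mural marker list, also higher in every cD2KO mouse, in the Jag1 levels was not tested.

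Jag2, the second Jagged ligand (ENSMUSG00000002799, chromosome 12, 112907819 to 112929776, minus strand), had 10, 11, and 9 counts in WT mice and 11, 1, and 9 counts in cD2KO mice. The groups overlapped, and fl126 alone was low. With no minimum, its log2 fold change was -0.24 (SE 0.98, edgeR unadjusted p = 0.802), with an error wide enough to hold a large change in either direction.

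The Delta ligands were at the edge of detection. Dll1 (ENSMUSG00000014773, chromosome 17, 15367354 to 15376872, minus strand), a ligand of embryonic muscle progenitors, had 4, 2, and 1 counts in WT and 2, 1, and 4 counts in cD2KO. Dll4 (ENSMUSG00000027314, chromosome 2, 119325784 to 119335962, plus strand), best known from endothelium, had 1, 2, and 3 counts in WT and 1, 0, and 0 counts in cD2KO. A count of 0 allowed up to 1.03 CPM in fl126 and 0.943 CPM in fl128, so a difference between the groups was not detectable at this depth. Parts of the exons of both Delta genes overlap a gene on the opposite strand, over 20.5% of the exon bases of Dll1 and 5.56% of those of Dll4, and whether counting used strand is not given in the sources used here.

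The 3 ligand ligases were detected in every mouse, and 1 of them passed the test. Neurl1a (ENSMUSG00000006435, chromosome 19, 47178820 to 47259441, plus strand), a Neuralized ligase, had levels of 20.0, 22.1, and 19.7 CPM in the WT mice and of 31.3, 31.5, and 31.4 CPM in the cD2KO mice, in the order of the names above. The 2 groups did not overlap, with means and SDs of 20.6 ± 1.30 (WT) and 31.4 ± 0.113 CPM (cD2KO, n = 3 each). Counts behind these levels were 57 to 78 in WT and 69 to 100 in cD2KO. At such counts the counting error of a single mouse is larger than these SDs. The closeness of the 3 values in a group is therefore no measure of how reproducible the level is. Neurl1a rose 1.52-fold, a log2 fold change of 0.61 (SE 0.27, 95% interval 0.04 to 1.18, unadjusted p = 0.0382, adjusted p = 0.387), in 3 of 3 cD2KO mice. The exact two-sided permutation test of the means gave p = 0.10, the smallest that 3 mice against 3 can give.

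The direction of Neurl1a was the same in all 14 alternative fits, with log2 fold changes from 0.57 to 0.68, and the p value passed 0.05 in 9 of them. It was 0.0869 without c124, 0.0835 without c130, 0.0795 without fl126, 0.0728 without fl128, and 0.0502 with DESeq2. Without fl125, the library that stood apart, it was 0.0403. The mural marker list was also higher in every cD2KO mouse, with 4 of its 11 genes called higher (Acta2, Myh11, Tagln, and Cnn1, contractile genes of smooth muscle) and none called lower, and its part in the Neurl1a result was not tested. These 4 genes carried the difference of the sum, and the other 7, set apart after their values were seen, summed to 1739 to 3168 CPM in WT and 1608 to 3150 CPM in cD2KO, which overlapped. A gene without an assigned type on the same strand, AC132288.2, shares 9.47% of the Neurl1a exon bases.

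Mib2 (ENSMUSG00000029060, chromosome 4, 155654677 to 155669198, minus strand), a Mind bomb ligase, had 30.7, 21.4, and 18.3 CPM in WT mice and 32.2, 36.6, and 37.1 CPM in cD2KO mice. The cD2KO mice were all higher, but fl125 and the WT mouse c124 were separated by little. The mural marker list was also higher in every cD2KO mouse, and its part in the Mib2 levels was not tested. Means were 23.5 ± 6.45 (WT) and 35.3 ± 2.71 CPM (cD2KO; SD, n = 3 each). The log2 fold change was 0.58 (SE 0.28, 95% interval -0.02 to 1.18, unadjusted p = 0.0579, adjusted p = 0.442), which did not pass. It passed without c124 (0.83, unadjusted p = 0.0213), without fl125 (0.68, unadjusted p = 0.0387), with limma voom (unadjusted p = 0.0487), and with no minimum (unadjusted p = 0.0476).

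Mib1 (ENSMUSG00000024294, chromosome 18, 10725548 to 10818704, plus strand), the Mind bomb ligase required for ligand activity in most mouse tissues, had 23.0, 30.6, and 23.9 CPM in WT mice and 34.4, 17.1, and 21.1 CPM in cD2KO mice. The highest and the lowest level were both in the cD2KO group, with fl125 the highest. Its log2 fold change was -0.10 (SE 0.32, 95% interval -0.79 to 0.58, unadjusted p = 0.749, adjusted p = 0.943), and the sign turned without c129 (0.05) and without fl126 (0.10). Without fl125 it was -0.39.

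**Figure D3:**
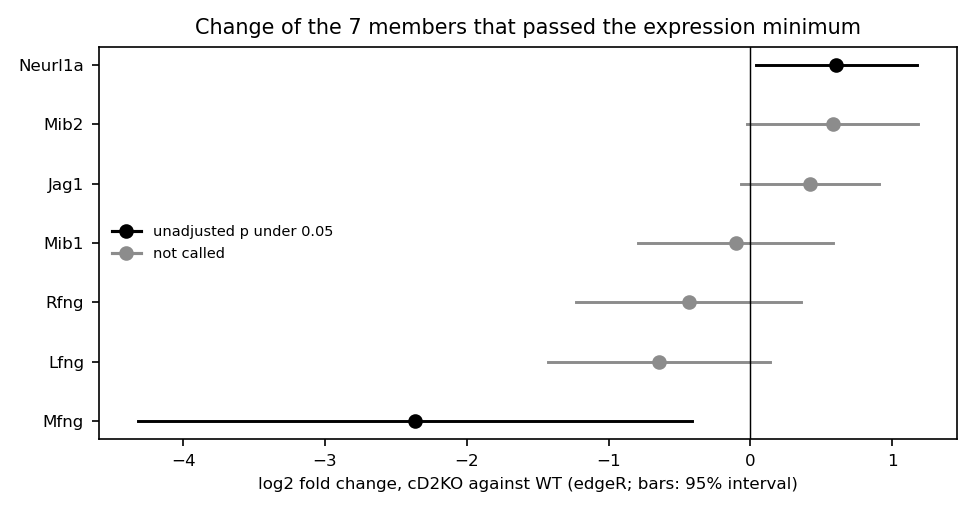
Log2 fold change of cD2KO against WT (x axis) with its 95% interval for the 7 members that were tested (y axis), in black where the unadjusted p was under 0.05 and in gray otherwise. The intervals of Neurl1a (0.04 to 1.18) and Mfng (-4.32 to -0.41) lay off 0, and those of the other 5 held 0.

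The 3 Fringes all had lower mean levels in cD2KO, for Rfng only with c129 included. Mfng (ENSMUSG00000018169, chromosome 15, 78755882 to 78773475, minus strand), known as manic fringe, had 16 counts in c124, 15 in c129, and 25 in c130 among WT mice, and 0 counts in fl125, 1 in fl126, and 9 in fl128 among cD2KO mice. As levels these were 4.10, 5.52, and 8.65 CPM in WT and 0, 0.342, and 2.83 CPM in cD2KO. All cD2KO mice were below all WT mice, and the cD2KO mice differed widely, with fl128 the highest and a count of 0 in fl125 allowing up to 1.36 CPM. The fitted log2 fold change was -2.37 (SE 0.91, 95% interval -4.32 to -0.41, unadjusted p = 0.0193, adjusted p = 0.315), a 5.16-fold lower level. Since the minimum let Mfng in through its WT counts, this p is given as a description, beside that of the fit of 18040 genes with no minimum (-2.35, unadjusted p = 0.0103, adjusted p = 0.203). The exact two-sided permutation test gave p = 0.10, again the smallest possible here.

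When a mouse was left out and the tested genes were kept the same, the log2 fold change of Mfng ran from -4.70 (without fl128) to -1.84 (without fl125), always lower in cD2KO, and the p value was under 0.05 in 4 of 6 fits. The genes kept were those of the minimum that Mfng had entered through its WT counts. These fits are thus a description too, and their signs and p values support nothing. It was 0.0807 without c130 and 0.0714 without fl126, and 0.0419 without fl125. The immune marker list was also lower in every cD2KO mouse, 18 of its 20 genes were tested, and 4 of them (Ptprc, Cd68, Adgre1, and Itgam) were called lower and none higher. Its sums were 4694 (c124), 9086 (c129), and 5915 CPM (c130) in WT and 243 (fl125), 2669 (fl126), and 3086 CPM (fl128) in cD2KO. The mouse with no Mfng count, fl125, had the lowest sum. In WT the order differed, since c129 had the highest sum (Mfng 5.52 CPM) and c130 the highest Mfng (8.65 CPM). Cd79a, a defining B cell gene, was at 0 in every mouse, and the T cell gene Cd3e did not exceed 0.737 CPM. Of the endothelial list, 8 of 15 tested genes were called lower and none higher. The part of these lists in the Mfng result was not tested.

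Lfng, lunatic fringe (ENSMUSG00000029570, chromosome 5, 140607320 to 140615545, plus strand), had 17.7, 25.4, and 27.7 CPM in WT mice and 8.61, 14.7, and 21.4 CPM in cD2KO mice. The groups overlapped, since fl128 exceeded c124, and fl125 was again the lowest mouse. Means were 23.6 ± 5.26 (WT) and 14.9 ± 6.38 CPM (cD2KO; SD, n = 3 each). The log2 fold change was -0.64 (SE 0.36, 95% interval -1.42 to 0.14, unadjusted p = 0.0994, adjusted p = 0.521). It was -0.34 without fl125, and it passed only without fl128 (-1.0, unadjusted p = 0.0274) among the 14 alternative fits.

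Rfng, radical fringe (ENSMUSG00000025158, chromosome 11, 120780746 to 120784207, minus strand), had 25.9, 75.1, and 31.5 CPM in WT mice and 26.7, 35.3, and 35.2 CPM in cD2KO mice. The WT mouse c129 stood far above the other 5 mice, which lay within a band that both groups shared. The log2 fold change was -0.44 (SE 0.37, 95% interval -1.23 to 0.36, unadjusted p = 0.254, adjusted p = 0.708), and without c129 the sign turned to 0.20 (unadjusted p = 0.498). Without fl125 it was -0.28. The lower mean of Rfng in cD2KO thus rested on c129.

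The make-up of the Fringe counts followed these levels. Mfng took 8.60%, 5.21%, and 12.8% of the counts of the 3 Fringes in WT (c124, c129, and c130). In cD2KO it took 0% in fl125, 0.680% in fl126, and 4.76% in fl128. Exact 95% intervals were 2.94% to 8.44% for c129, the lowest WT mouse, and 2.2% to 8.85% for fl128, the highest cD2KO mouse, so the nearest mice of the 2 groups were not separated beyond counting error. Rfng held the largest share in every mouse, from 46.4% to 75.6%.

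Per kilobase of merged exon length, the members spanned a wide range of levels. This scale assumes reads along the whole transcript, which is not stated in the sources used here, and without length Jag1 ranked 1st, Rfng 2nd, and Lfng 6th. Over all 6 mice, Rfng had the highest level (15.4 ± 7.43 CPM per kb, SD, n = 6), followed by Lfng (7.68 ± 2.82), Jag1 (7.54 ± 1.33), and Mib2 (6.22 ± 1.66). Lfng, Jag1, and Mib2 did not differ beyond their spread, and Rfng (10.4 to 30.2 CPM per kb) overlapped Lfng (3.44 to 11.1 CPM per kb). Neurl1a (3.57 ± 0.820) and Mib1 (2.29 ± 0.583) came next, and then Mfng (1.26 ± 1.15). At the lower end, Jag2 (0.43 ± 0.226), Dll1 (0.18 ± 0.0877), and Dll4 (0.11 ± 0.108) were all under 1 CPM per kb in every mouse. Dll1 and Dll4 overlapped. Within groups, Lfng ranked 2nd in WT (9.42 ± 2.10) and 4th in cD2KO (5.95 ± 2.55), with Jag1 (8.65 ± 0.322) and Mib2 (7.47 ± 0.574) above it in cD2KO.

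**Figure D4:**
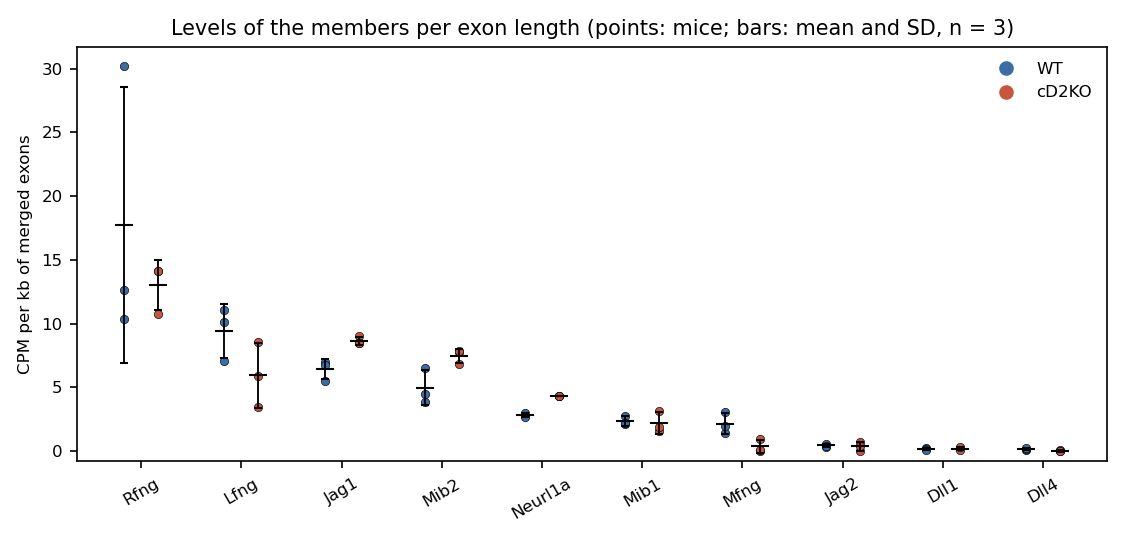
Level of each member in CPM per kb of merged exons (y axis), ordered by the mean over 6 mice (x axis), with a point for each mouse and bars for the mean and SD of 3 mice per group. Rfng was highest at a mean of 15.4 CPM per kb, and Jag2, Dll1, and Dll4 lay near 0 in both groups.

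The genes that followed Neurl1a and Mfng most closely over the 6 mice were found by the Pearson correlation of log2 CPM across the other 11632 tested genes, given here as a description since both members were picked for their change and the 6 values share the group difference. For Neurl1a these were Atp2a3, a calcium pump of the endoplasmic reticulum (r = 0.992), Itpr1, an inositol trisphosphate receptor that releases calcium from the same store (r = 0.987), and Susd5 (r = 0.987). All 3 were themselves higher in cD2KO at an unadjusted p under 0.05, with log2 fold changes of 0.97, 0.64, and 1.0 (edgeR unadjusted p = 0.000213 for Atp2a3, 0.00446 for Itpr1, and 0.000883 for Susd5). For Mfng they were Lin54, a DNA-binding subunit of the cell cycle repressor complex DREAM (r = 0.992), Depdc7 (r = 0.990), and Itgbl1 (r = 0.990). Of these, Itgbl1 was lower in cD2KO (log2 fold change -1.29, edgeR unadjusted p = 0.0209), and Lin54 (-0.80) and Depdc7 (-0.93) did not pass. In all, 125 genes had an r above 0.9 with Neurl1a and 195 with Mfng. A high r over 6 mice thus does not mark the named genes as particular to either member.

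Beyond the 10 members, 55 other genes of the pathway were read from the same fit. Of the 50 that were tested, 2 were called higher and 4 lower, near the 5.34% and 6.62% of all tested genes, and none passed an adjusted p of 0.05. Their median log2 fold change was -0.07. The 7 genes next to the members in function, other ligand ligases and the machinery that takes ligand up, included 1 higher and 2 lower. Epn2, an epsin adaptor that binds ubiquitinated cargo, rose from 90.3 ± 15.6 to 139 ± 15.1 CPM (SD, n = 3 each), or by 0.62 on the log2 scale (SE 0.20, edgeR unadjusted p = 0.00836, adjusted p = 0.210). Cltc, the clathrin heavy chain, fell by 0.57 on the log2 scale (SE 0.19, edgeR unadjusted p = 0.00795, adjusted p = 0.206), from 234 ± 25.3 to 157 ± 2.65 CPM (SD, n = 3 each). Both kept an unadjusted p under 0.05 in all 6 fits that left out a mouse. These fits reuse the mice in which both genes were called, so they are a description and no separate support. Dnm2, the dynamin that pinches off clathrin-coated vesicles, was lower by a log2 fold change of -0.47 (SE 0.22, edgeR unadjusted p = 0.0483, adjusted p = 0.415) and lost its call in each of those 6 fits. The paralog Neurl1b had a log2 fold change close to that of Neurl1a but with groups that overlapped (0.65, SE 0.32, edgeR unadjusted p = 0.0608), and the paralogs Neurl2 (-0.95, SE 0.60) and Neurl3 (-0.72, SE 0.70) had values of the opposite sign that did not pass.

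**Figure D5:**
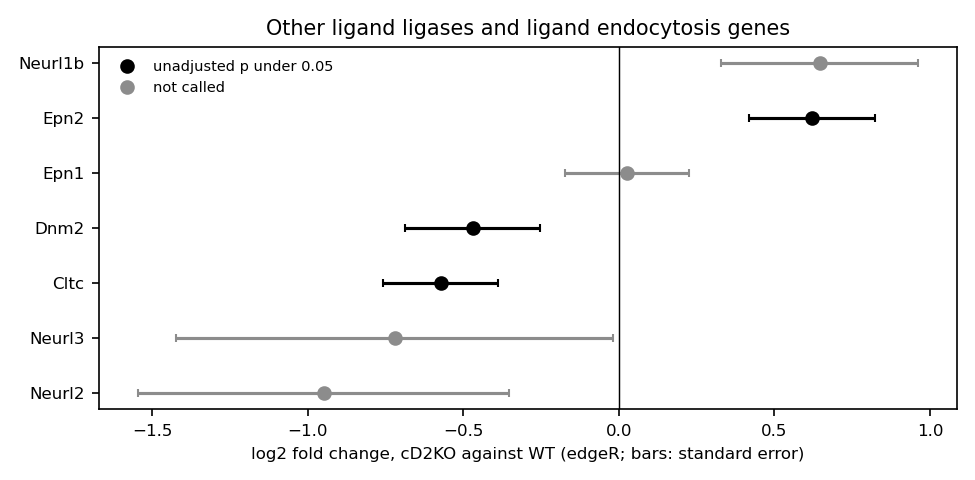
Log2 fold change of cD2KO against WT (x axis) with its standard error for the 7 other ligand ligases and ligand endocytosis genes (y axis), in black where the unadjusted p was under 0.05. Epn2 (0.62) was higher, and Cltc (-0.57) and Dnm2 (-0.47) were lower.

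Of the 5 other enzymes that build O-linked sugars on the receptor, the step that prepares or accompanies Fringe action, none was called. Pofut1, which adds the O-fucose that the Fringes extend, was lower in every cD2KO mouse than in every WT mouse (31.1 ± 1.81 in WT against 23.5 ± 2.42 CPM, SD, n = 3 each), as were 10% of all tested genes. Its log2 fold change of -0.41 (SE 0.26, edgeR unadjusted p = 0.143) did not pass. Poglut1, which adds O-glucose (0.34, SE 0.23), was above in every cD2KO mouse, as were 8.10% of all tested genes. So was Xxylt1, which adds xylose further along that sugar chain (1.04, SE 0.57, edgeR unadjusted p = 0.0883). Neither passed, and Xxylt1 rested on 93 counts over all mice. Gxylt1 (-0.35, SE 0.29) and Gxylt2 (0.39, SE 0.25) overlapped between groups. The median of the 5 enzymes was 0.34. On the receiving side, 1 of 4 receptors was called higher (Notch3, log2 fold change 0.75, edgeR unadjusted p = 0.00901, adjusted p = 0.216). Another 1 was called lower (Notch2, -1.08, edgeR unadjusted p = 0.000664, adjusted p = 0.0997). The mural marker list was higher in every cD2KO mouse, and its part in the Notch3 result was not tested. Rbpj was the 1 called gene of 10 in the nuclear complex (-0.66), and none of 6 tested target genes was called. Of the 4 other ligands, Dll3 had no count in any mouse, and Dlk1, a Delta-like protein without the DSL domain of the canonical ligands, was the 1 that was tested (-0.24, SE 0.35).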

How the data were processed

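Total RNA of GFP-sorted MuSCs was sequenced by a digital RNA-seq service. Reads were aligned to mm10 with STAR 2.6.0a and counted with HTSeq 0.9.1 per the submitters' processing notes, and the authors deposited 1 table of raw counts per Ensembl gene in each mouse. The study's methods also write the assembly as GRCh38, and mm10 was used here since the gene identifiers are those of mouse. The annotation, strand setting, duplicate handling, and whether reads cover whole transcripts are not given in the sources used here.

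Groups were taken from the genotype labels. Symbols and positions came from GENCODE M21, which held 31011 of the 31053 identifiers. The 10 members and the lists of pathway and marker genes were chosen with earlier results of these data known. The result of 1 marker list is not reported here. All members are named with their values, along with the other Notch genes called at an unadjusted p under 0.05 and the 3 genes most correlated with each called member. Neurl1b, Neurl2, Neurl3, Pofut1, Poglut1, Gxylt1, Gxylt2, and Xxylt1, named as neighbors of members, and the uncalled Dll3 and Dlk1 were added after their values were seen.

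Genes with a mean above 10 DESeq2-normalized counts were fitted with edgeR 4.0.16 (quasi-likelihood, robust, TMM factors, R 4.3.3) on the deposited counts, WT against cD2KO over all 6 mice, with no covariate. Calls used an unadjusted p under 0.05, as the volcano plot of the study does, with Benjamini-Hochberg values over all 11633 genes beside it. CPM were computed on TMM-scaled totals. Levels were compared by exact two-sided permutation tests. Alternatives were DESeq2 1.42.0, limma 3.58.1 (voom), other size factors, other minimums, no robust estimation, and each mouse left out. The fit was tested on simulated data. Counts of any pair of mice within a group differed by far more than sampling noise (chi-square per degree of freedom of at least 8.66), so each was kept as its own replicate. Totals were 2184073 to 3897787 counts. Intervals of fold changes come from the fit and hold the variation between mice, whereas intervals of shares and floors cover counting error only. Those of shares and floors take each read as an independent molecule, which was not checked.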

Additional observations from a re-analysis of the deposited data

How the results depend on the processing

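Of 100 recomputed member fold changes, 97 kept their direction. The 3 that turned were Mib1 without WT replicate 2, c129 (0.05), and without cD2KO replicate 2, fl126 (0.10), and Rfng without c129 (0.20). With 1 mouse left out, Mib1 ranged from -0.39 to 0.10 and Rfng from -0.72 to 0.20. The count of members called higher (1) was 0 with DESeq2, 2 with limma voom, 2 with no minimum, and 0 at an adjusted p under 0.05, and it ranged from 0 to 2 when 1 mouse was left out. The count called lower (1) was 0 with a minimum mean of 50, under which Mfng was not tested, 0 at an adjusted p under 0.05, and 0 to 2 with 1 mouse left out. Without any WT mouse Mfng also fell under the minimum, so fits over the genes tested with all 6 mice were added after seeing the data. Over all genes, the 621 higher calls became 939 with no minimum and 1 at an adjusted p under 0.05, with 402 to 933 when 1 mouse was left out. The highest of these was without fl125, and the lowest without fl128. The 770 lower calls became 505 with a minimum mean of 50 and 0 at an adjusted p under 0.05, with 399 (without c129) to 874. Among the other Notch genes, recomputed as a choice made after seeing the data, the 2 higher calls became 4 with no minimum, 0 at an adjusted p under 0.05, and 2 to 4 with 1 mouse left out, and the 4 lower calls became 0 at an adjusted p under 0.05 and 3 to 4. The cause of these shifts was not tested. In the order by level, 4 of 10 members kept their rank without exon length and 8 of 10 with the longest transcript. The log2 ratios of mean CPM of all 7 tested members moved by less than the spread between WT mice with unscaled totals. No paired analysis was possible because the labels give each mouse its own number and none is shared between WT and cD2KO. Depth limits Dll1, Dll4, Jag2, and Mfng most, with at most 25 counts in any mouse, and 3 mice a group cannot give a permutation p under 0.1.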
